A study of Mus musculus with 10 samples.

Results

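The urea cycle and the enzymes that feed ammonia into it were followed through 9 genes in RNA-seq of cells sorted from mouse liver. The 9 were chosen by name and function, with earlier results of these data known. They comprise the cycle enzymes Cps1, Otc, Ass1, Asl and Arg1, and Nags, which makes the activator of Cps1. The others are Arg2, the extrahepatic arginase, and Gls2 and Glud1, which release ammonia from glutamine and glutamate. The members are 9 of the 29972 genes measured. All 9 passed the filter on low values, at least 1 TPM (a relative transcript abundance corrected for transcript length) in at least 3 libraries, and 8 of them did so in every hepatocyte library, Arg2 being the exception.

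The study holds 10 libraries. Hepatocyte-derived peripheral cholangiocytes (HpC, 4 libraries, mice aged P124 to P151) and hepatocytes (H, 3 libraries, P134 to P139) came from Alb-Cre+/-;Rbpjf/f;Hnf6f/f mice. Peripheral cholangiocytes (pC, 3 libraries, P119 to P151) came from Rbpjf/f;Hnf6f/f mice without Cre. All groups thus carry floxed Rbpj, through which Notch receptors act on DNA, and floxed Hnf6 (Onecut1), a transcription factor of bile duct development, on a mixed C57BL/6, FVB and CD1 background. The albumin promoter that drives Cre is active in hepatocytes and in the embryonic precursors of both liver epithelia. HpC against pC therefore differs in Cre, deletion and origin together, and pC against H in Cre and cell type. Cells of both cholangiocyte groups were sorted after further digestion steps that the hepatocytes did not undergo, so isolation and cell type cannot be told apart against H. The series title states that hepatocytes can form a biliary system anew through TGF-beta; the question asked here is how much of a hepatocyte's ammonia-disposal program is present in cholangiocytes of each origin.

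Hepatocytes dispose of ammonia as urea. In their mitochondria carbamoyl phosphate is made from ammonia and bicarbonate and joined to ornithine to give citrulline, and in the cytosol citrulline takes up a second nitrogen from aspartate before arginine is split into urea and ornithine. The full cycle is a feature of hepatocytes, densest around the portal tracts where bile ducts also lie, while hepatocytes at the central vein trap residual ammonia as glutamine. Cholangiocytes line the bile ducts.

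In every HpC and pC library, 8 of the 9 transcripts lay far below every hepatocyte library, and Arg2, the extrahepatic arginase, lay above. Against H, limma called 8 of 9 lower and 1 of 9 higher in HpC, and 8 lower and 1 higher in pC (Benjamini-Hochberg adjusted over all 14765 genes tested, threshold 5%). Over all genes tested, 29.2% were called lower and 30.7% higher in HpC than in H, and 28.6% lower and 31.1% higher in pC than in H; on TPM as deposited the calls were 1519 lower and 7553 higher in HpC, and 1255 and 9361 in pC, with the same 9 members called. The median difference of the 9 on the log2(scaled TPM + 1) scale was -5.46 in HpC and -6.30 in pC, where the median of all genes was 0.08 and 0.11. Both comparisons use the same 3 hepatocyte libraries. Between HpC and pC limma called 0 of 9, against 4.54% of all genes called in either direction. At an unadjusted p under 0.05 there was 1 of 9, a threshold for which the share of all genes was not computed. The values of HpC and pC did not overlap for 1 of 9, Glud1, against 16.5% of all genes, and on TPM as deposited Glud1 overlapped too.

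**Figure D1:**
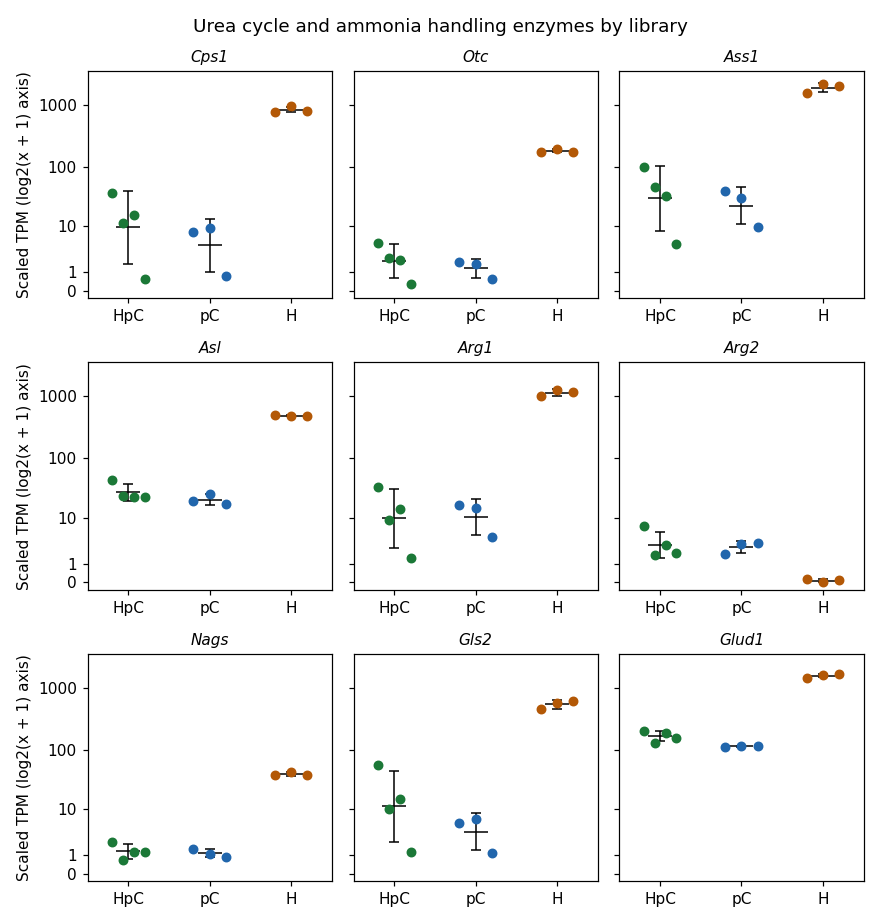
Scaled TPM of the 9 enzymes on a log2(x + 1) axis in 4 HpC, 3 pC and 3 H libraries, drawn in replicate order. Each point is a library, the long bar is the mean and the whiskers the SD of the log2 values; 8 enzymes are high in H and low elsewhere, Arg2 is the reverse, and only for Glud1 do all HpC points sit above all pC points, which on TPM as deposited they do not.

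Some properties of the libraries touch these values. The files hold TPM, which keep no sequencing depth; neither counting errors nor limits of detection can be computed, and replicate spread is the error used. Summed scaled TPM of 12 hepatocyte markers ran from 3582 to 7683 in HpC, 1009 to 2835 in pC and 104231 to 120123 in H. That of 12 cholangiocyte markers, a list that includes the floxed Onecut1, ran from 2016 to 3167, 5627 to 5817 and 98.4 to 150.4. The mean was higher in HpC than in pC for 11 of the 12 hepatocyte markers and 4 of the 12 cholangiocyte markers. None of either list was at 0 in all libraries of a group. Sums of Kupffer cell markers were 15.4 to 40.1 in HpC, 26.0 to 37.1 in pC and at most 1.08 in H. Of 9 stellate cell and fibroblast markers 9 had a higher mean in HpC than in pC. Their sums were 30.7 to 92.8 in HpC, 21.5 to 31.1 in pC and 2.65 to 3.31 in H. Of 6 mesothelial markers 5 had a higher mean in HpC than in pC, with sums of 413 to 989.6, 431 to 566 and 0.242 to 1.22. Most of the mesothelial sum in HpC and pC was Krt19, which is also on the cholangiocyte list. Krt19 stood at 382 to 941 in HpC and 407 to 539 in pC. The part of stellate, fibroblast and mesothelial cells in the HpC to pC differences was not tested. Pancreatic acinar markers took 18.8% of the deposited TPM of HpC1 and at most 0.186% elsewhere, and squamous epithelial markers 4.59% of HpC2 and at most 0.00168% elsewhere. Without HpC1 and HpC2 the members called were again 0 of 9 between HpC and pC and 9 of 9 against H. The floxed genes themselves stood at 4.09 to 6.24 (Rbpj) and 19.3 to 46.3 scaled TPM (Onecut1) in HpC, 5.51 to 6.82 and 63.0 to 81.9 in pC, and 1.20 to 1.59 and 46.0 to 109 in H; a deleted exon need not lower the TPM of a transcript, so these levels do not check the labels. H2, H3 and HpC4 share an age as well as the genotype of their groups, and nothing says that they came from separate animals, so that p-values against H may rest on technical spread. In such bulk libraries fewer cells of a type and less RNA per cell cannot be told apart.

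For the members in RefSeq's table of promoters (build GRCm38.p6, 250 bases before to 50 after the start of the gene), 4 of 9 matched. The promoters of Otc and Glud1 are shown because their HpC and pC means, as a percent of the H mean, were the lowest and the highest among those 4. By log2 difference from H, Ass1 was as low as Otc, at -5.94 in HpC and -6.32 in pC against -5.92 and -6.30. They lie at chrX:10252055-10252354 and chr14:34310477-34310776, both on the plus strand, and CpG dinucleotides (a C followed by a G) are in capitals.
Otc: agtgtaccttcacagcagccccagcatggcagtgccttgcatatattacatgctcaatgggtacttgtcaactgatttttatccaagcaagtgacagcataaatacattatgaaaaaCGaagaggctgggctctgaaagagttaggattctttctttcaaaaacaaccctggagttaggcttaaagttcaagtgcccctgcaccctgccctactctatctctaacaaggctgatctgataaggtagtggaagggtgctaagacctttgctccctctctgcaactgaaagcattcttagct
Glud1: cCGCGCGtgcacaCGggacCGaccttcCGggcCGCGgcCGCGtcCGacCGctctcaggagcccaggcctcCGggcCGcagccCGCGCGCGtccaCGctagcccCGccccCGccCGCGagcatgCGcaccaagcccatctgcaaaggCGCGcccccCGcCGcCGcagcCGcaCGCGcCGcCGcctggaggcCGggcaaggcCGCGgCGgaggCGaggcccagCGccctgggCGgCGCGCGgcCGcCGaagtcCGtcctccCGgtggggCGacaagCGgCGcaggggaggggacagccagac
The Otc promoter holds 1 CpG at a GC content of 44.3%, and the Glud1 promoter holds 51 at 81.0%. The median over 32851 promoters of the same length is 7 CpG at 52.7%, so that 14.1% hold no more CpG than Otc and 0.715% hold at least as many as Glud1. The promoters of Ass1 and Nags hold 27 and 14 CpG. The letters ATCAAT (Onecut), TGGGAA (RBPJ core), CAAAGTCCA (HNF4A), TTGCNNAA (C/EBP), TGACGTCA (cAMP response element), and the core-promoter letters TATAAA, were searched on both strands and occur in none of the 4, where 7.54%, 25.6%, 0.475%, 10.8%, 1.79% and 13.6% of all promoters hold them.

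The mitochondrial entry to the cycle begins with Nags, N-acetylglutamate synthase, whose product is the obligate activator of Cps1 (chr11:102145513-102149477, plus strand, mm10, as for all gene positions here). Nags stood at 2.32, 0.680, 1.28 and 1.25 scaled TPM across HpC1 to HpC4, 1.51, 1.12 and 0.897 across pC1 to pC3 and 38.8, 43.1 and 38.4 across H1 to H3. Both cholangiocyte groups were low and overlapped, and all their libraries lay below every H library. Nags was lower by 4.15 ± 0.22 (SE) on the log2 scale in HpC than in H (limma adjusted p = 2.19e-07) and differed by -4.25 ± 0.23 between pC and H (adjusted p = 2.73e-07). The HpC minus pC difference was 0.10 ± 0.22, with a 95% interval of -0.39 to 0.59 (adjusted p = 0.855). The only coding transcript of Nags was at 1.39 deposited TPM in HpC1 and listed at or near 0 in HpC2 to HpC4, against 1.43, 1.49 and 1.42 across pC1 to pC3 and 8.38, 9.58 and 8.19 across H1 to H3. In HpC2 to HpC4 the signal was assigned to noncoding transcripts of the gene instead. Summed over coding transcripts alone, Nags was -0.55 in HpC minus pC (adjusted p = 0.436, between 0.436 and 0.996 over all alternatives). Gm11586, an antisense gene, overlaps an exon of Nags by 443 bases and was at 0 to 3.81 deposited TPM; without stated strand the reads of the overlap cannot be assigned.

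Cps1, carbamoyl phosphate synthetase, takes up free ammonia and is the rate-limiting enzyme of the cycle (chr1:67123026-67231259, plus strand, 1 transcript). It stood at 37.3, 11.3, 15.8 and 0.585 scaled TPM across HpC1 to HpC4, 7.97, 9.34 and 0.726 across pC1 to pC3 and 777, 949.9 and 807 across H1 to H3. HpC1 was the highest cholangiocyte library, HpC4 and pC3 were the lowest, and on scaled values no cholangiocyte library reached 5% of the H mean. Cps1 was lower by 6.32 ± 0.96 (SE) on the log2 scale in HpC than in H (limma adjusted p = 2.54e-04), and the pC minus H difference was -7.28 ± 1.03 (adjusted p = 1.57e-04). Its HpC minus pC difference, 0.96 ± 0.96, had a 95% interval of -1.18 to 3.11, so that neither an equal level nor a severalfold higher one in HpC lies outside it (adjusted p = 0.652). Left out, single libraries moved the differences from H: without HpC4 the HpC value was -5.40, without HpC1 -6.93, and without pC3 the pC value was -6.45.

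Otc, ornithine transcarbamylase, joins carbamoyl phosphate to ornithine (chrX:10252305-10321024, plus strand). It stood at 5.01, 2.41, 2.13 and 0.307 scaled TPM across HpC1 to HpC4, 1.96, 1.74 and 0.561 across pC1 to pC3 and 175, 198 and 176 across H1 to H3. As for Cps1, HpC1 was highest and HpC4 and pC3 lowest among cholangiocyte libraries, and HpC and pC overlapped. The log2 differences from H were -5.92 ± 0.43 in HpC and -6.30 ± 0.46 in pC (limma adjusted p = 1.50e-06 and 1.57e-06). The HpC minus pC difference was 0.38 ± 0.43 with a 95% interval of -0.59 to 1.35 (adjusted p = 0.701). Relative to the H mean, Otc was at 0.168% to 2.74% in HpC and 0.307% to 1.07% in pC, among the smallest such levels of the 9.

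The cytosolic arm of the cycle opens with Ass1, argininosuccinate synthetase, which adds the nitrogen of aspartate to citrulline (chr2:31470207-31520672, plus strand). Ass1 stood at 99.2, 46.6, 32.8 and 4.77 scaled TPM across HpC1 to HpC4, 39.5, 30.2 and 9.76 across pC1 to pC3 and 1572, 2141 and 2051 across H1 to H3. It was the most abundant of the 9 in each H library, while in HpC4 and pC3 it fell short of 10 scaled TPM. The log2 differences from H were -5.94 ± 0.82 in HpC and -6.32 ± 0.88 in pC (limma adjusted p = 1.30e-04 and 1.40e-04), the first at -5.13 without HpC4. Between HpC and pC the difference was 0.38 ± 0.82 with a 95% interval of -1.45 to 2.21 (adjusted p = 0.850).

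Asl, argininosuccinate lyase, cleaves the product of Ass1 into arginine and fumarate (chr5:130011258-130029247, minus strand). Asl stood at 43.7, 24.0, 23.1 and 23.1 scaled TPM across HpC1 to HpC4, 19.8, 25.8 and 17.2 across pC1 to pC3 and 503, 489.6 and 481 across H1 to H3. Apart from HpC1 its levels were within a narrow band in both cholangiocyte groups, HpC4 and pC3 included. It stood at 4.69% to 8.90% of the H mean in HpC and 3.50% to 5.24% in pC, a larger percent than Ass1 in each of the 7 cholangiocyte libraries. The log2 differences from H were -4.12 ± 0.23 and -4.51 ± 0.25 (limma adjusted p = 3.09e-07 and 2.80e-07). The HpC minus pC difference was 0.39 ± 0.23, 95% interval -0.13 to 0.91 (adjusted p = 0.427).

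Arg1, the cytosolic liver arginase, splits arginine into urea and ornithine and closes the cycle (chr10:24915221-24927484, minus strand, 1 transcript). Arg1 stood at 33.1, 9.25, 14.5 and 1.50 scaled TPM across HpC1 to HpC4, 16.7, 15.0 and 4.33 across pC1 to pC3 and 1006, 1282 and 1172 across H1 to H3. HpC4 and pC3 were again the lowest of their groups, and the HpC and pC ranges overlapped throughout. The log2 differences from H were -6.74 ± 0.75 in HpC, the furthest of the 9, and -6.64 ± 0.80 in pC (limma adjusted p = 2.75e-05 and 5.12e-05). Without HpC4 the first was -6.03. The HpC minus pC difference was -0.09 ± 0.75, the only negative one of the 9, with a 95% interval of -1.76 to 1.58 (adjusted p = 0.965).

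Arg2, the mitochondrial arginase of tissues other than liver parenchyma, ran the other way (chr12:79130777-79156301, plus strand, 1 transcript). Arg2 stood at 7.06, 1.76, 3.04 and 1.96 scaled TPM across HpC1 to HpC4, 1.90, 3.14 and 3.35 across pC1 to pC3, and 0.133, listed at 0, and 0.0928 across H1 to H3. Every cholangiocyte library was above every hepatocyte library, and HpC1 was the highest of all. Arg2 was higher than in H by 1.91 ± 0.34 (SE) in HpC and by 1.80 ± 0.37 in pC on the log2(scaled TPM + 1) scale (limma adjusted p = 7.60e-04 and 0.00177), which understates differences of genes this low. HpC minus pC was 0.11 ± 0.34, 95% interval -0.65 to 0.88 (adjusted p = 0.896). The coding gene Vti1b overlaps an exon of Arg2 by 285 bases on the opposite strand; it was at 30.1 to 32.5 deposited TPM in H, where Arg2 was at most 0.0777, and at 25.1 to 59.6 in the cholangiocyte libraries. The log2 ratio of Arg2 to Arg1, each with 1 TPM added, was -1.42 ± 1.11 (SD, n = 4) in HpC, -1.62 ± 1.20 (SD, n = 3) in pC and -10.06 ± 0.27 (SD, n = 3) in H. HpC4 alone held more Arg2 than Arg1.

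Gls2, the liver-type glutaminase, releases ammonia from glutamine inside the mitochondria that make carbamoyl phosphate (chr10:128194457-128210004, plus strand). Gls2 stood at 55.3, 10.1, 15.4 and 1.28 scaled TPM across HpC1 to HpC4, 5.55, 6.60 and 1.17 across pC1 to pC3 and 453, 578 and 619 across H1 to H3. HpC varied widely, HpC1 lying at 10.1% and HpC4 at 0.232% of the H mean, and the range of pC lay within that of HpC except for pC3. The log2 differences from H were -5.46 ± 0.88 in HpC and -6.84 ± 0.94 in pC (limma adjusted p = 3.72e-04 and 1.29e-04). The first was -4.65 without HpC4 and -6.19 without HpC1. Its HpC minus pC difference was the largest of the 9, with an SE exceeded only by that of Cps1, 1.38 ± 0.88 with a 95% interval of -0.58 to 3.34 (adjusted p = 0.463). Of its 11 transcripts the coding ones took 32.4% to 34.4% of Gls2 TPM in H, 19.2% to 34.7% in HpC and 33.9% to 61.7% in pC, and a noncoding transcript of 246 bases took up to 59.1% in HpC3; such short transcripts are hard to estimate from 50-base reads. Exons of Gls2 overlap those of Spryd4 on the opposite strand by 97 bases.

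Glud1, glutamate dehydrogenase, frees ammonia from glutamate in the mitochondria of most tissues (chr14:34310727-34345265, plus strand). Glud1 stood at 202, 130.1, 189 and 158 scaled TPM across HpC1 to HpC4, 112, 117 and 113 across pC1 to pC3 and 1472, 1597 and 1684 across H1 to H3. Its scaled level was steady over the cholangiocyte libraries, HpC4 and pC3 included, and every HpC library lay above every pC library. That separation rests on the scaling: on TPM as deposited Glud1 stood at 134.9, 149.9, 274 and 254 across HpC1 to HpC4 and 171, 183 and 179 across pC1 to pC3, with HpC1 and HpC2 below all of pC. The group means were 169.8 ± 32.3 (SD, n = 4) in HpC, 114 ± 2.64 (SD, n = 3) in pC and 1584 ± 107 (SD, n = 3) in H. The log2 differences from H were -3.23 ± 0.17 in HpC and -3.78 ± 0.18 in pC, the nearest to H of the 8 lower members (limma adjusted p = 2.08e-07 and 1.36e-07). HpC minus pC was 0.55 ± 0.17 with a 95% interval of 0.17 to 0.93 and did not pass the test (adjusted p = 0.110); without HpC2 it was 0.67 and passed (adjusted p = 0.0275, between 0.0275 and 0.815 over all alternatives), and on TPM as deposited it was 0.12. The annotation also lists a Glud pseudogene, with which short reads could be shared.

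**Figure D2:**
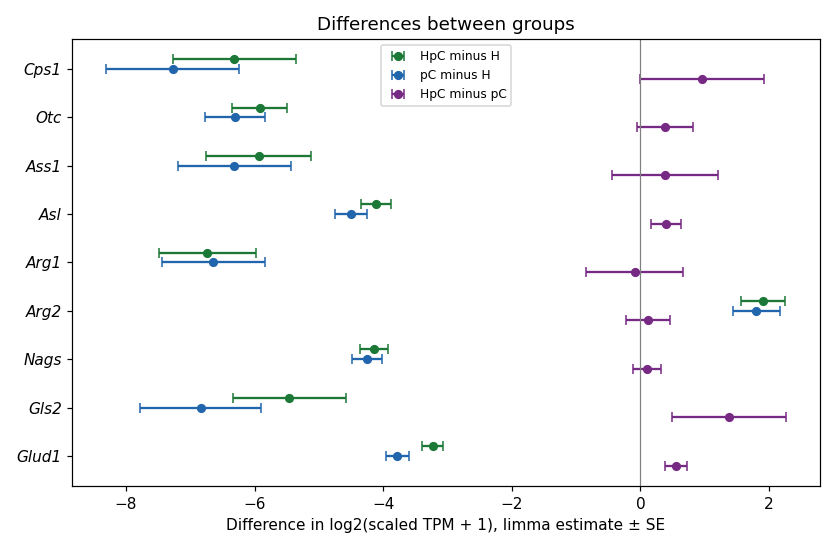
Differences between groups on the log2(scaled TPM + 1) scale for each of the 9 enzymes, as limma estimates with whiskers of 1 SE. HpC minus H and pC minus H lie between -7.28 and -3.23 for 8 enzymes and at 1.91 and 1.80 for Arg2, while the HpC minus pC estimates lie between -0.09 and 1.38.

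Set against the hepatocyte mean, the 8 lower members differed by library. They are described in sets formed after these values were seen, so the values below are no test of the sets. Cps1, Otc, Ass1, Arg1 and Gls2 were each lowest, among HpC, in HpC4, where they were at 0.0693% to 0.248% of the H mean, and lowest, among pC, in pC3, at 0.0859% to 0.508%. Asl, Nags and Glud1 were not lowest in HpC4, although Asl and Nags were lowest in pC3. All 3 stood at more of the H level in these libraries, at 4.71%, 3.13% and 9.95% in HpC4 and at 3.50%, 2.24% and 7.13% in pC3. For Nags the HpC4 value came from noncoding transcripts. Its only coding transcript was listed at 0 in HpC4 and was at 1.42 deposited TPM in pC3. These percentages depend on the scaling: on TPM as deposited the first 5 were at 0.212% to 0.765% in HpC4 and 0.259% to 1.54% in pC3, and Asl, Nags and Glud1 at 9.55% to 30.5% and 6.72% to 21.5%. All 12 hepatocyte markers were also lowest in pC3 among pC, and 11 of 12 lowest in HpC4 and highest in HpC1 among HpC; on TPM as deposited these were 12, 10 and 2, with HpC3 highest for the other 10. The median marker was at 5.67%, 2.43%, 3.14% and 1.47% of its H mean in HpC1 to HpC4 and at 0.995%, 1.07% and 0.231% across pC1 to pC3, and on TPM as deposited at 7.16%, 5.33%, 8.64% and 4.50% and at 2.88%, 3.17% and 0.698%. The part of hepatocyte RNA in the levels of these enzymes was not tested. On the scaled values HpC1 was the highest HpC library for 9 of 9 members; its scaling factor, 0.668, was the lowest of HpC (the others 1.15 to 1.61), and on TPM as deposited HpC1 was not the highest for Asl, Nags and Glud1.

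**Figure D3:**
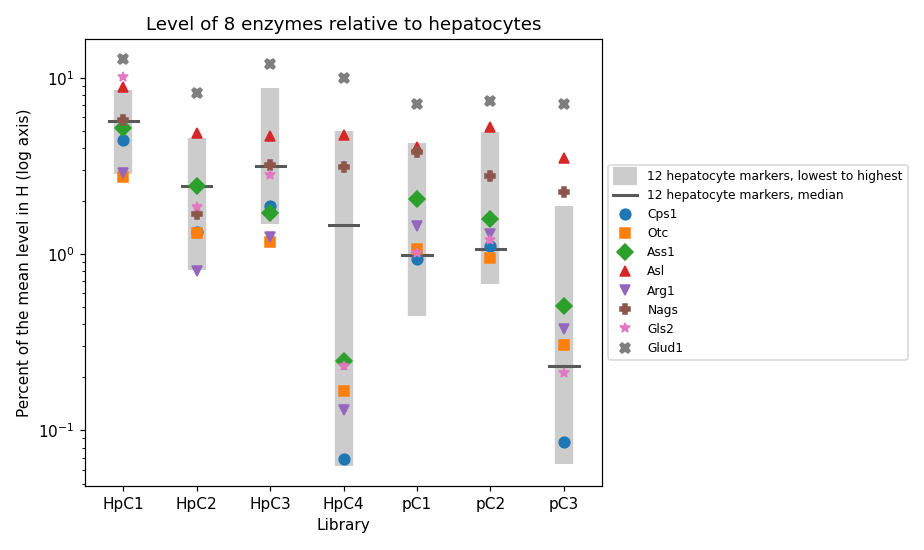
Level of 8 enzymes in each cholangiocyte library as a percent of the mean of 3 H libraries (log axis), with the range (grey bar) and median (line) of 12 hepatocyte markers. In HpC4 and pC3, Asl, Nags and Glud1 lie above the other 5 enzymes by a wide margin, a split made after the values were seen. The Nags signal in HpC4 was from noncoding transcripts. Arg2, above its H level everywhere, is left out.

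The make-up of the set differed between cell types. Its 9 transcripts summed to 485, 236, 297 and 193 scaled TPM across HpC1 to HpC4, 207 and 209.9 in pC1 and pC2 and less in pC3, and 5998, 7278 and 7030 across H1 to H3, so the groups of cholangiocytes overlapped and H stood far above. Glud1 made up 41.6% to 81.9% of that sum in HpC and 54.1% to 74.8% in pC, against 21.9% to 24.5% in H, with the highest shares in HpC4 and pC3. Cps1 made up 0.304% to 7.68%, 0.481% to 4.45% and 11.5% to 13.1%, and Arg1 0.779% to 6.83%, 2.87% to 8.08% and 16.7% to 17.6%. By mean level the order in H was Ass1, Glud1, Arg1, Cps1, Gls2, Asl, Otc, Nags and Arg2, with overlapping ranges only for Ass1 with Glud1 and Gls2 with Asl. In HpC it was Glud1, Ass1, Asl, Gls2, Cps1, Arg1, Arg2, Otc and Nags, where only Glud1 stood clear of its neighbour. In pC it was Glud1, Ass1, Asl, Arg1, Cps1, Gls2, Arg2, Otc and Nags, where Glud1 stood clear of Ass1 and Asl of Arg1. The shares and orders count every transcript of a gene, short and noncoding ones included, and depend on that. The longest Glud1 transcript alone was at 288 to 319 deposited TPM in H, where Arg1 was at 588 to 640. In HpC1 it was at 52.7, below the coding Ass1 transcript at 66.0. Coding transcripts took 32.4% to 34.4% of Gls2 TPM in H.

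**Figure D4:**
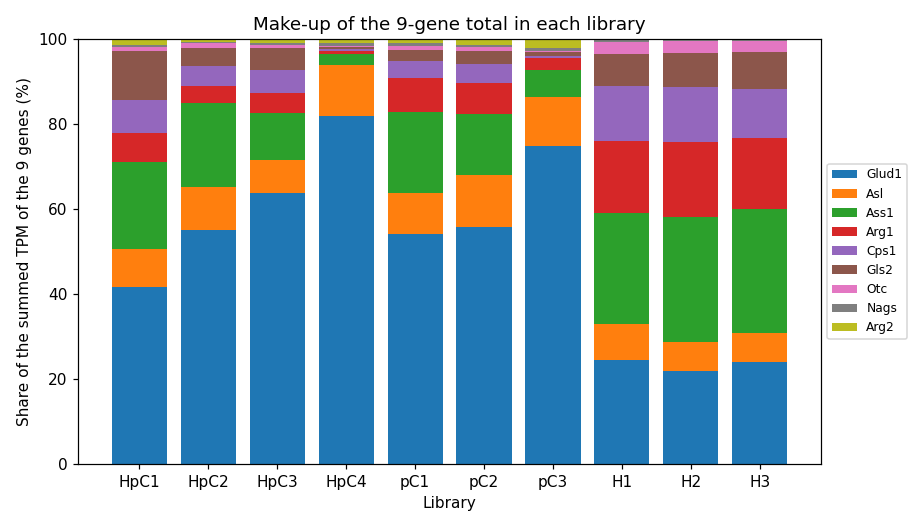
Share of each enzyme in the summed TPM of the 9 in each of the 10 libraries, in percent, with all transcripts of a gene counted. Glud1 takes the largest share of every cholangiocyte library, up to 81.9% in HpC4, and a smaller share than Ass1 in each H library.

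The genes most alike to each member over the 10 libraries were sought among the tested genes with a mean log2 value of at least 3 (7290 per member, 7291 for Arg2 and Nags). Since the gap between H and the rest dominates every such correlation, they are given as a description. Cps1 was most like Apoc3 (Pearson r = 0.998), Hpd and Hrg, and Otc most like Dmgdh (r = 0.999), Nat8f2 and Apom. Ass1 was most like Hpd (r = 0.997), Azgp1 and Orm1, and Asl most like Mlycd (r = 0.998), Pecr and Ephx2. Arg1 was most like Wfdc21 (r above 0.999), Rgn and Fetub, and Nags most like Sec14l4 (r = 0.999), Phyh and Rida. Gls2 was most like Slc38a3 (r = 0.995), Cps1 and Cyp2c70, and Glud1 most like Xylb (r = 0.998), Slc35d1 and Cideb. Arg2 was most like Lbh (r = 0.980), Slc9a3r2 and Gramd1a.

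Around the cycle, several mitochondrial carriers and Car5a were also lower in cholangiocytes. Of 8 listed genes 7 were tested. Against H, limma called 4 lower and 1 higher in HpC and likewise 4 and 1 in pC, with median log2 differences of -3.18 and -3.09. Over all genes tested, 29.2% were called lower and 30.7% higher in HpC, and 28.6% and 31.1% in pC. On TPM as deposited the calls over all genes were 1519 lower and 7553 higher in HpC, and 1255 and 9361 in pC. Those of the list were then 4 lower and 2 higher in HpC and 4 and 3 in pC. The higher one, named after its values were seen, was Slc25a18, a glutamate carrier, at 0.558 to 0.865 scaled TPM in HpC, 0.710 to 1.37 in pC and 0 to 0.0976 in H; under quantile normalisation it differed from H by -0.02 and 0.25 and was not called. Car5a, the mitochondrial carbonic anhydrase that supplies bicarbonate to Cps1, was furthest below H, with means of 1.17 ± 0.851 (SD, n = 4) scaled TPM in HpC, 0.742 ± 0.422 (SD, n = 3) in pC and 65.0 ± 6.15 (SD, n = 3) in H (log2 differences from H -5.01 ± 0.30 and -5.27 ± 0.32, adjusted p = 4.07e-07 and 4.61e-07). Slc25a15, the carrier that exchanges ornithine for citrulline, stood at 2.32 to 6.09 in HpC, 2.64 to 4.66 in pC and 83.4 to 94.1 in H. The glutamate carrier Slc25a22 and the aspartate/glutamate carrier Slc25a13 differed from H by -3.92 and -3.18 in HpC and by -4.65 and -3.09 in pC. The genes not called, named after their values were seen, were Car5b, the other mitochondrial carbonic anhydrase, at -0.24 in HpC and -0.17 in pC (adjusted p = 0.250 and 0.444), and Slc25a12, a second aspartate/glutamate carrier, at 0.46 and 0.66 (adjusted p = 0.331 and 0.201). Slc25a12 was called higher on TPM as deposited, at 1.59 and 2.21, and under quantile normalisation, at 1.26 and 1.62. Car5b was called lower under quantile normalisation, at -0.80 and -0.69, and in pC higher on TPM as deposited, at 0.70. None of the 7 was called between HpC and pC, and 0 under every alternative.

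Among genes of glutamine and glutamate exchange (11 of 14 tested), 9 were lower and 2 higher in HpC than in H, and 9 lower and 1 higher in pC, with median log2 differences of -2.94 and -3.07. Over all genes tested, 29.2% were lower and 30.7% higher in HpC, and 28.6% and 31.1% in pC. On TPM as deposited the pC calls of the list were 6 lower and 2 higher, and those over all genes 1255 and 9361. On scaled values the higher genes of the list were Aldh18a1 in both and Asns in HpC, both outside the rule for named genes.

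Glul, glutamine synthetase of the central-vein hepatocytes, was at 99.7 ± 39.7 (SD, n = 4) scaled TPM in HpC, 109.7 ± 37.2 (SD, n = 3) in pC and 557 ± 154 (SD, n = 3) in H. It was lower by 2.51 ± 0.34 (SE) on the log2 scale in HpC than in H (limma adjusted p = 1.03e-04) and differed by -2.34 ± 0.36 between pC and H (adjusted p = 2.74e-04), the latter -0.79 and no longer called on TPM as deposited (adjusted p = 0.0661, between 1.41e-04 and 0.0661 over all alternatives). The glutamine transporter Slc38a3 differed from H by -5.60 ± 0.71 in HpC, -4.97 without HpC4 and -6.19 without HpC1, and by -6.51 ± 0.75 in pC. The cytosolic aminotransferases Got1 and Gpt differed from H by -4.32 and -4.22 in HpC and -4.70 and -4.37 in pC. Aldh4a1, the mitochondrial dehydrogenase that yields glutamate in proline breakdown, differed from H by -4.16 in HpC and -4.12 in pC. Asns, asparagine synthetase, named after its values were seen, stood at 92.5, 13.7, 7.03 and 3.50 scaled TPM across HpC1 to HpC4, where HpC1 also held the acinar markers; their part in it was not tested.

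Gpt2, the mitochondrial alanine aminotransferase, was the 1 gene of this list called between HpC and pC. It stood at 60.8, 45.1, 36.2 and 37.5 scaled TPM across HpC1 to HpC4, 127, 158 and 103 across pC1 to pC3 and 255, 267 and 260.3 across H1 to H3. HpC lay below pC and pC below H, with no overlap. The log2 difference of Gpt2 was -1.51 ± 0.21 (SE) in HpC minus pC (limma adjusted p = 0.00335) and -2.54 ± 0.21 in HpC minus H (adjusted p = 3.01e-06). The pC minus H difference of -1.03 ± 0.22 (adjusted p = 0.00249) turned to 0.52 on TPM as deposited and to 0.01 under quantile normalisation, so its direction rests on the scaling.

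Genes that use arginine and ornithine (13 of 16 tested) went both ways against H. On scaled values 5 were lower and 5 higher in HpC and likewise 5 and 5 in pC, with median log2 differences of -0.21 and 0.42. These shares were near those of all genes (29.2% lower and 30.7% higher in HpC, 28.6% and 31.1% in pC). On TPM as deposited 4 of the list were lower and 6 higher in each. Over all genes the deposited calls were 1519 lower and 7553 higher in HpC, and 1255 and 9361 in pC, so the nearness rests on the scaling. On scaled values the higher genes in both comparisons were Odc1, Azin1, Azin2, Ddah2 and Slc7a1, and the lower ones Oaz1, Agmat, Gamt, Ddah1 and Slc7a2. Of these, Odc1, Azin1, Azin2, Oaz1 and Gamt lie outside the rule for named genes. Azin1 in HpC lost its call in 7 of 19 alternatives. The calls of Oaz1 and Azin2 rest on the scaling: Oaz1 differed from H by -0.27 in HpC and 0.08 in pC on TPM as deposited, and Azin2 by 0.38 and 0.19 under quantile normalisation, none of them called. Ddah1, which returns citrulline from asymmetric dimethylarginine, was called between HpC and pC. It stood at 28.2, 23.4, 29.2 and 30.7 scaled TPM across HpC1 to HpC4, 4.53, 4.05 and 4.36 across pC1 to pC3 and 116, 126 and 156 across H1 to H3. The groups were ordered H, HpC, pC without overlap and with little spread, HpC4 being no lower than the other HpC libraries. Ddah1 was higher by 2.44 ± 0.15 (SE) on the log2 scale in HpC than in pC (limma adjusted p = 4.15e-05) and by 1.82 to 2.66 under all 19 alternatives. Its differences from H were -2.20 ± 0.15 in HpC and -4.64 ± 0.16 in pC (adjusted p = 9.17e-07 and 5.30e-08).

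Ddah2, the other enzyme of that reaction, stood at 26.0 to 45.4 scaled TPM in HpC, 35.9 to 46.0 in pC, and 0.446 in H1 and listed at 0 in H2 and H3. Its differences from H were 5.04 ± 0.23 and 5.23 ± 0.25 (limma adjusted p = 1.05e-07 and 1.27e-07). In HpC the range of Ddah1, 23.4 to 30.7, overlapped that of Ddah2. The cationic amino acid transporters Slc7a1 and Slc7a2 also differed from H in opposite directions. Slc7a1 stood at 12.8 to 22.3 in HpC, 7.94 to 15.1 in pC and 0.0322 to 0.0783 in H, and Slc7a2 at 3.21 to 6.34, 1.96 to 4.49 and 77.8 to 92.0. Not all related pairs did so: Got1 and Got2 were both lower than H, and Azin1 and Azin2 both higher. Slc7a1 was 4.11 ± 0.24 and 3.38 ± 0.26 from H, and Slc7a2 -4.02 ± 0.24 and -4.38 ± 0.26. All passed the test, which for HpC was part of the rule that named these genes. Agmat, agmatinase, was lower by 4.65 ± 0.23 (SE) in HpC than in H.

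**Figure D5:**
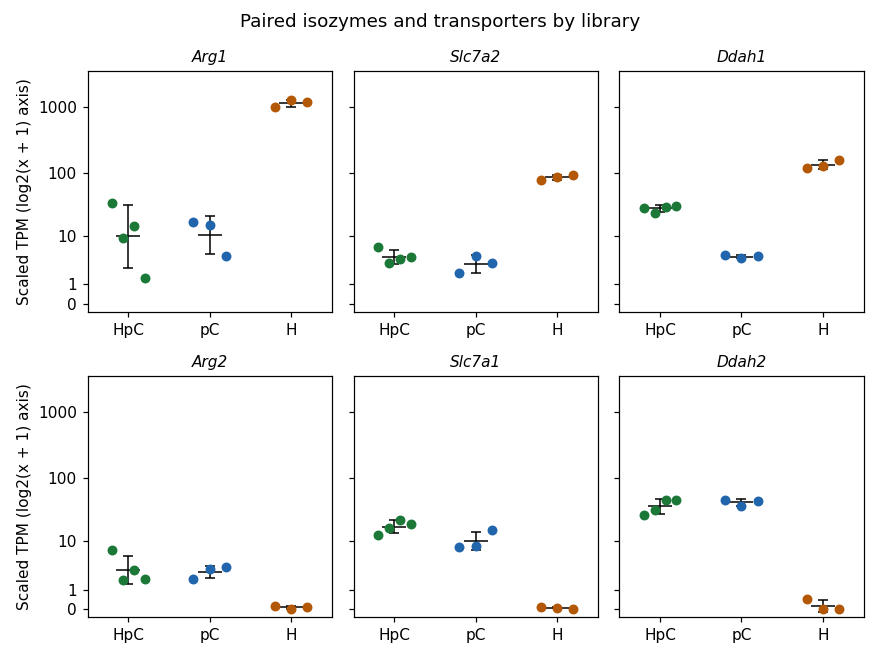
Scaled TPM on a log2(x + 1) axis, in HpC, pC and H, of 3 related pairs that differed from H in opposite directions. Points are libraries, long bars means and whiskers SDs of log2 values. Pairs that went the same way are not shown. The upper genes (Arg1, Slc7a2, Ddah1) are highest in H and the lower ones (Arg2, Slc7a1, Ddah2) lowest there, and Ddah1 separates HpC from pC.

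Of 11 regulators of urea cycle genes, all tested, 9 were lower and 1 higher in HpC than in H and 8 lower and 1 higher in pC, with median log2 differences of -1.30 and -1.48. Over all genes tested, 29.2% were lower and 30.7% higher in HpC, and 28.6% and 31.1% in pC. On TPM as deposited the calls over all genes were 1519 lower and 7553 higher in HpC, and 1255 and 9361 in pC. The split of the regulators rests on the scaling: on TPM as deposited 5 of them were lower and 2 higher in HpC, and 4 lower and 3 higher in pC. None was called between HpC and pC, and Onecut1 alone on TPM as deposited. The higher one, Ppargc1a, a coactivator of nuclear receptors named after its values were seen, stood at 10.3 to 24.3 scaled TPM in HpC, 21.4 to 34.3 in pC and 6.55 to 7.99 in H, and the gene called lower in HpC and not in pC was Onecut1, which is floxed. Gcgr, the glucagon receptor, stood at 3.84, 1.41, 3.22 and 0.220 scaled TPM across HpC1 to HpC4, 0.960, 1.14 and 0.312 across pC1 to pC3 and 101, 99.8 and 121 across H1 to H3, lowest in HpC4 and pC3 among cholangiocytes. Its differences from H were -5.28 ± 0.42 and -5.93 ± 0.45 (limma adjusted p = 2.55e-06 and 1.87e-06). Sirt3, a mitochondrial deacetylase, the bile acid receptor Nr1h4 and the hepatocyte factor Hnf4a differed from H by -3.06, -2.84 and -2.39 in HpC and by -2.62, -2.82 and -2.80 in pC. Hnf4a stood at 66.6 ± 16.4 (SD, n = 4) scaled TPM in HpC against 346 ± 23.1 (SD, n = 3) in H.

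Enzymes listed for the breakdown of other amino acids, only some of which release ammonia themselves, were mostly lower in cholangiocytes. Of 14 tested of 15 listed, 13 were lower in HpC than in H and 12 in pC, none higher, with median log2 differences of -3.62 and -2.85. Over all genes tested, 29.2% were called lower and 30.7% higher in HpC, and 28.6% and 31.1% in pC. On TPM as deposited 10 of the list were lower in HpC, and 9 lower and 1 higher in pC. Over all genes the deposited calls were 1519 lower and 7553 higher in HpC, and 1255 and 9361 in pC. Sds, serine dehydratase, and Hal, histidine ammonia-lyase, differed from H by -5.84 ± 0.54 and -5.72 ± 0.45 in HpC and by -5.49 ± 0.58 and -5.88 ± 0.49 in pC. Gldc, the decarboxylase of the glycine cleavage system, and Cth, cystathionine gamma-lyase, differed by -5.41 ± 0.28 and -5.12 ± 0.53 in HpC and by -6.44 ± 0.30 and -5.31 ± 0.57 in pC. These 4 were named for the largest differences among genes called in HpC against H, so that call was fixed by the choice. Limma also called all 4 in pC against H, which uses the same 3 H libraries. Between HpC and pC it called none of the 14, or 2, Aass and Cbs, on TPM as deposited.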

How the data were processed

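The authors deposited 1 table per library with TPM for 85276 transcripts with Ensembl identifiers. Per the submitters' processing notes, kallisto, DESeq and mm10 were used, without versions or roles. Reads had 50 bases from 1 end, per the labels. The deposited TPM sum to about 1000000 per library and hold no depth. Transcripts were joined to GENCODE M21 (mm10) by identifier: 81927 matched, and the 3349 that did not held 4.22% to 9.06% of TPM and were left out. TPM were summed per gene, scaled between libraries by an unweighted trimmed mean of log ratios (trims 30% and 5%; factors 0.499 to 1.61), filtered at 1 TPM in 3 libraries (14765 genes) and tested as log2(scaled TPM + 1) with limma 3.58.1 (R 4.3.3, mean-dependent prior variance, 1 coefficient per group over 10 libraries, Benjamini-Hochberg over all genes, 5%). Intervals are 95% and from the same fit. The limma fit alone was checked on simulated data, for HpC against pC. Other steps ran in Python 3.11.15 with pandas 2.3.3 and matplotlib 3.10.9. Sample groups come from the labels' titles. Same-numbered libraries have different ages or genotypes and their deviations from group means correlated at -0.05 to 0.08, so the numbers do not pair them. Members and lists were chosen with earlier results of these data known. Named genes were all members and Glul. From each list they were also those called between HpC and pC, and up to 4 with the largest difference of HpC from H among those called there. A gene of the glutamine list is not reported here. Alternatives were other pseudocounts, filters, scalings, transcript sets, sample sets and a replicate block; their effect on the pathway lists was computed after seeing the data.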

Additional observations from a re-analysis of the deposited data

Results flagged for a closer look

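Asl in HpC1 stood apart from the other HpC libraries, at 43.7 scaled TPM where HpC2 to HpC4 lay between 23.1 and 24.0; on the log2(scaled TPM + 1) scale the gap is 0.937 of the whole range of the 4 libraries, beyond what Dixon's test allows at the 95% level. In 32 such groups examined chance alone flags about 5%. HpC1 had the lowest scaling factor of HpC, 0.668, and on TPM as deposited its Asl level, 29.2, lay among the others, between 27.7 and 37.3. No cause was tested.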

How the results depend on the processing

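All 9 members were called in HpC against H and in pC against H under each of the 19 alternatives, in the same direction. Between HpC and pC the members called were 0 to 1 when single libraries were left out, the 1 being Glud1 without HpC2, and 0 under all other alternatives. Over all genes, calls between HpC and pC were 671 and fell to 373 with only those groups in the fit; leaving out single libraries gave 284 to 808, with 411 without HpC3, 362 without pC1 and 284 without pC2. Leaving out single libraries gave 7858 to 9098 calls for HpC against H and 7774 to 9300 for pC against H. TPM as deposited moved the median gene by -0.38 (HpC minus pC), 0.94 (HpC minus H) and 1.30 (pC minus H) on the log2 scale and changed the split of calls: 408 of 552 calls lower against 377 of 671 for HpC to pC, 7553 higher and 1519 lower against 4528 and 4314 for HpC to H, and 9361 higher and 1255 lower against 4590 and 4216 for pC to H.

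Signs of the uncalled HpC minus pC differences turned in places. Without HpC1 and HpC2, Cps1 was -0.072, Otc -0.20, Ass1 -0.77 and Arg2 -0.11. On TPM as deposited, Ass1 was -0.049, Asl -0.021, Arg2 -0.24 and Nags -0.16, and over coding transcripts Nags was -0.55. Arg1 was 0.021 with pseudocount 5 and 0.61 with the replicate block. With 1 library left out, Ass1 ranged from -0.19 to 1.19, Arg1 from -0.64 to 0.61, Arg2 from -0.22 to 0.29 and Nags from -0.074 to 0.25. Gpt2 in pC minus H was 0.52 on TPM as deposited and 0.013 under quantile normalisation. The causes were not tested. The replicate block, which leaves out HpC4 for want of a partner, gave 573 calls between HpC and pC, 8184 for HpC against H and 8697 for pC against H, with 0, 9 and 9 members, and changed no call of a member.

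Calls in the lists against H stayed within 1.5 times under each alternative. Between HpC and pC they became 2 for the arginine list without HpC3 or pC3 (1 with all libraries). For regulators (0) they became 2 without HpC4 or with the replicate block and 1 on TPM as deposited or over coding transcripts. For the enzymes of amino acid breakdown (0) they became 2 without HpC1, without HpC1 and HpC2 or on TPM as deposited, and 1 without HpC4 or with the replicate block. TPM without depth give no detection limit for Arg2 in H or Nags in cholangiocytes.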

Other observations

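The 6 polyamine genes of the arginine list went different ways against H; they are described after their values were seen. Odc1, ornithine decarboxylase, which makes putrescine, stood at 58.0, 45.1, 41.3 and 37.9 scaled TPM across HpC1 to HpC4, 36.6, 37.6 and 36.6 across pC1 to pC3 and 22.7, 19.3 and 15.0 across H1 to H3. Every cholangiocyte library was above every H library, and Odc1 rose by 1.22 ± 0.18 (SE) on the log2 scale from H to HpC and 0.94 ± 0.19 from H to pC (limma adjusted p = 2.09e-04 and 0.00186). Its inhibitor Oaz1, antizyme, was lower, with differences from H of -1.40 ± 0.20 and -1.47 ± 0.22 (adjusted p = 1.74e-04 and 2.06e-04), but on TPM as deposited they were -0.27 and 0.08 and not called (adjusted p = 0.416 and 0.817). Azin1 and Azin2, which hold antizyme off Odc1, were 0.55 and 1.17 in HpC and 0.70 and 0.95 in pC, all past the test (adjusted p = 0.0354 for Azin1 in HpC). Azin1 in HpC was not called with the replicate block, without HpC1 and HpC2, or without HpC2, HpC4, pC2, H2 or H3 (adjusted p up to 0.143), nor Azin1 in pC without pC3 or H3. Azin2 was not called under quantile normalisation, nor in pC over coding transcripts. The synthases of spermidine and spermine, Srm and Sms, were not called, at -0.21 and -0.44 in HpC (adjusted p = 0.728 and 0.173) and -1.18 and 0.42 in pC (adjusted p = 0.0772 and 0.222); of 19 alternatives, 5 called Srm lower in pC, 1 called Sms lower in HpC and 1 called Sms higher in pC.

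Gamt, the methyltransferase of creatine synthesis, differed from H by -3.97 ± 0.64 in HpC and -4.53 ± 0.69 in pC (limma adjusted p = 3.87e-04 and 2.55e-04). Gamt stood at 30.5, 2.28, 3.22 and 3.56 scaled TPM across HpC1 to HpC4, and without HpC1 the HpC difference was -4.72. Gatm, which makes its substrate from arginine, was at 49.3 scaled TPM in HpC1, the library with acinar markers, and at most 1.40 in the other HpC libraries, and did not pass the test (adjusted p = 0.129 for HpC against H). Without HpC1 the Gatm difference went from 1.97 to 0.75 and passed (adjusted p = 0.0216, between 0.00548 and 0.290 over all alternatives, 4 of 19 of which called it).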
